A study of Mus musculus with 4 samples.

Results

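The regions described here are places where Elavl protein was crosslinked to the RNA of a protein-coding gene in N2A cells, a mouse neuroblastoma line, with no peak of the mouse cortex list nearby. A peak of the N2A list was taken as a far site when the closest cortex peak on the same chromosome and strand lay more than 200 nt away and when the N2A peak touched the span of a coding gene. This held for 2141 of the 7335 N2A peaks (29.2%, Wilson 95% interval 28.2 to 30.2), or 2141 of the 6936 N2A peaks in coding genes (30.9%, 29.8 to 32.0), the share to which every count of far sites below is set. The other 4795 N2A peaks in coding genes had a cortex peak within 200 nt and are called shared sites. The members were thus chosen by the measured positions of the peaks in both lists, so the number of far sites and their distance from the cortex peaks are a description and were not tested.

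The samples were UV-irradiated and taken through Elavl HITS-CLIP, in which crosslinked RNA is trimmed with RNase, purified with the protein and sequenced. There were 3 cortex samples, made with a degenerate linker of 25 nt and represented by 1 peak list whose name includes 2month without further explanation, and 1 sample of N2A cells, made with a linker of 7 nt and represented by its own list. The labels give no genotype, strain, age or treatment and do not say how the cortex samples were combined, so tissue source, linker design and library cannot be told apart in any difference between the lists. The lists hold a position and the authors' p per peak, no read count, so depth is unknown, there is no spread between replicates, and intervals cover counting error over peaks only, with peaks that share a gene not being independent. The cortex list was longer, with 97775 peaks. Of 15 sympathoadrenal markers, 8 had an N2A peak and 6 a cortex peak. A cortex peak was found for 7 of 8 excitatory neuron, 5 of 7 interneuron, 5 of 6 astrocyte and 5 of 6 oligodendrocyte markers. The N2A list had a peak in 0 of 8, 0 of 7, 0 of 6 and 1 of 6 of these, and in 0 of 5 microglia and 0 of 5 endothelial markers. For microglia and endothelial markers the cortex counts were 1 of 5 and 2 of 5. Only 3184 of all 21900 coding genes had an N2A peak, so counts of 0 in lists this short do not identify a cell type.

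Elavl1, also called HuR, is made in most cell types, whereas Elavl2, Elavl3 and Elavl4 are made mainly in neurons. All members recognise U-rich and AU-rich stretches, which are common in introns and in the untranslated ends of mRNAs, and binding there is known to affect splicing, stability and translation. Neuroblastoma cells derive from the sympathoadrenal lineage of the neural crest and divide, unlike the neurons of the cortex. A peak reports RNA that was both present and bound, and transcript levels were not measured, so an RNA that was absent from cortex and one that was present but not bound there cannot be told apart.

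Letters were at hand for 2 far sites, those whose central 30 bases lie in a RefSeq window around a gene start (GRCm38.p6, 250 bases before to 50 after the start). They are shown because they are the only members whose sequence was read here, not because of their strength. Capitals mark runs of at least 3 T, and the strand shown is that of the RNA.
H2ac22, chr13:21787200-21787229, minus strand: TTTTgTTTagaatgtctggacgcggcaaac
Zbtb18, chr1:177444436-177444465, plus strand: tgttagaaagTTTggggggaaaaaggaaga
The first lies in H2ac22, a histone H2A gene of 0.475 kb with near-identical copies elsewhere in the genome, so that its reads may belong to a copy. T made up 33.3% of its letters, against 21.7% at the same place in all 32851 start windows, and 24.7% of those windows hold TTT there. The second lies in Zbtb18, a transcriptional repressor of the nervous system. T made up 20% of its letters, against 24.3% at that place in all windows, where 33.8% hold TTT. The H2ac22 peak (p of 7.39e-05) lay 36.985 kb from the nearest cortex peak, in a gene with 0 cortex peaks, and the Zbtb18 peak (p of 0.0597) lay 851 nt from one. They thus belong to the different kinds of far site described next.

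Most far sites were not remote from the cortex sites. The median gap was 705 nt, the lower and upper quartiles were 347 and 7777 nt, and 1226 of the 2141 (57.3%, 55.2 to 59.3) had a cortex peak within 1000 nt. In 1221 of these 1226 (99.6%) that cortex peak lay in the same gene. The far site lay on the 3′ side of it in 571 of 1226 (46.6%, 43.8 to 49.4) and on the 5′ side in the others. The nearest cortex peaks of these 1226 had a median p of 1.06e-10, against 0.00938 over all cortex peaks in coding genes and 9.74e-10 for the cortex peaks that overlapped an N2A peak. At the other extreme, 582 far sites (27.2%, 25.3 to 29.1) lay more than 5000 nt from a cortex peak, and the largest gap was 1806 kb, for a site in the formin gene Diaph3, named for that value.

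**Figure D1:**
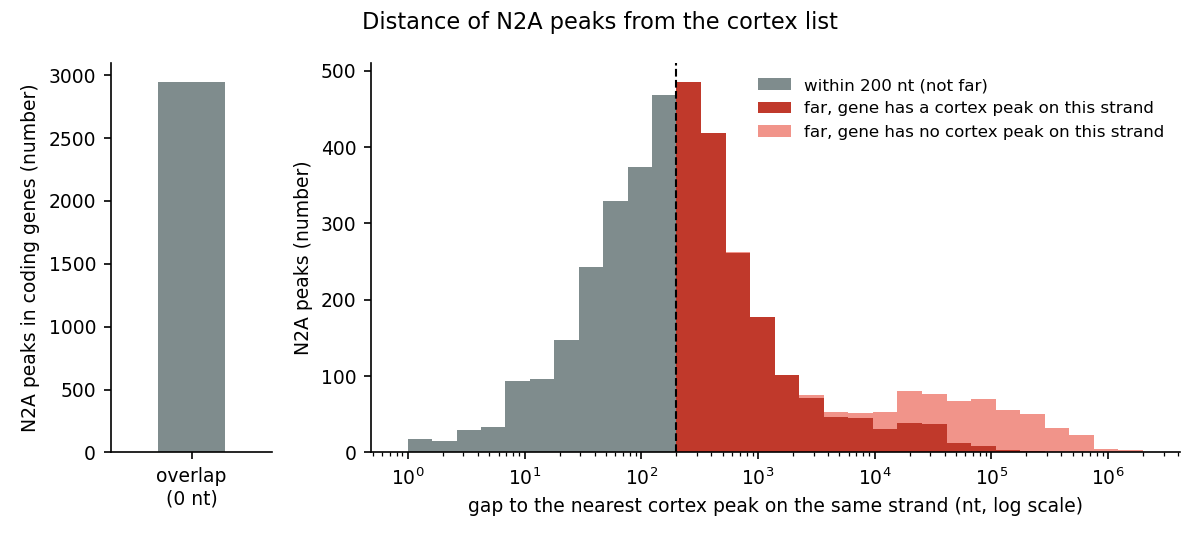
Gap from each N2A peak in a coding gene to the nearest cortex peak on the same strand, in nt, with overlapping peaks as the single bar at left (2949 peaks) and the others on a log axis. The dashed line is the 200 nt limit. Far sites beyond 50000 nt are mostly in genes with no cortex peak on that strand (259 of 281), and those of 201 to 500 nt never are (0 of 860).

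The limit of 200 nt cut through a continuous range of gaps. Just outside it, at 201 nt, lay far sites in Hnrnpl, a splicing factor (p of 1.94e-19), Akirin2, a nuclear regulator of transcription (p of 0.00283), Sdha, a respiratory chain subunit (p of 0.0140), and Fbxo33, an F-box protein (p of 0.0532), followed at 202 nt by Macroh2a1, a histone variant (p of 5.96e-11). Just inside it, at exactly 200 nt, lay peaks in Nap1l1, a histone chaperone (p of 6.78e-24), Lrrc8a, a subunit of the volume-regulated anion channel (p of 0.000146), Leprotl1 (p of 0.0124), Ado, a thiol dioxygenase (p of 0.0144), and Rcn2, a calcium-binding protein of the endoplasmic reticulum (p of 0.0408). Strong and weak peaks thus lay on both sides of the limit.

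The far sites fell in 1389 of the 3184 coding genes with an N2A peak (43.6% of those genes). Of the 1389, 779 also held shared sites, 341 had cortex peaks but none near an N2A peak, and 269 had no cortex peak on either strand. The strongest N2A peak of the gene was a far site in 222 of the 779 genes with both kinds (28.5%, 25.4 to 31.8). Exactly 1 far site was found in 934 genes, 2 in 279, 3 in 93, 4 in 45, and 5 or more in 38. A total of 54 far sites touched several coding genes and count for each.

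Far sites lay mainly at the 3′ end of genes. The end of the span was at most 5 kb downstream of 1645 of 2141 far sites (76.8%, 75 to 78.6), and at most 500 nt downstream of 418 (19.5%, 17.9 to 21.3). Among the shared sites 3919 of 4795 (81.7%, 80.6 to 82.8) lay within 5 kb and 1154 (24.1%, 22.9 to 25.3) within 500 nt. Of the cortex peaks in coding genes, 18873 of 92777 (20.3%) lay within 5 kb. The intervals for far and shared sites do not overlap, but peaks are not replicates and the difference was not tested. The median distance to the gene end was 1632 nt for far sites and 1393 nt for shared sites. Within 5 kb of the gene start lay 9.06% (7.92 to 10.4) of far sites and 7.55% (6.84 to 8.33) of shared sites, and 19.9% (18.2 to 21.6) and 16.1% (15.1 to 17.2) lay over 5 kb from both ends.

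The far sites in genes without a cortex peak lay closest to the gene end. With cortex peaks counted on the strand of the N2A peak, there were 400 such sites (18.7% of the far sites, 17.1 to 20.4), and 150 of them (37.5%, 32.9 to 42.3) lay within 500 nt of the end, against 268 of the 1741 far sites in genes with a cortex peak (15.4%, 13.8 to 17.2). Their median distances to the end were 781 and 1814 nt. The genes were also of unlike length, with a median of 20.15 kb for the 400 sites and 49.0 kb for the 1741, and the part of gene length in the difference was not tested. Over all far sites and all shared sites the median gene lengths were 41.7 and 41.6 kb. By distance from the cortex peak, the share within 5 kb of the gene end was 87.1% (84.7 to 89.2) for gaps of 201 to 500 nt, 60.4% (55.0 to 65.5) for 1001 to 5000 nt, 60.5% (54.8 to 65.8) for 5001 to 50000 nt and 82.6% (77.7 to 86.6) beyond.

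**Figure D2:**
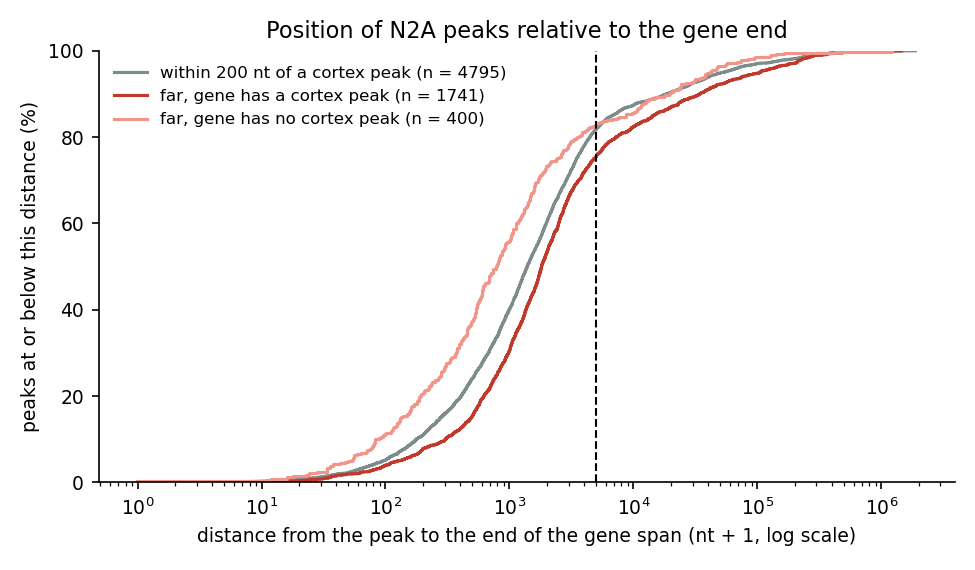
Cumulative share of N2A peaks against their distance from the end of the gene span (nt plus 1, log axis), for shared sites (4795), far sites in genes with a cortex peak on that strand (1741) and far sites in genes without (400). The dashed line marks 5 kb. The curve of the 400 runs to the left of the others, with a median of 781 nt against 1814 nt for the 1741.

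Far sites were weaker on average within the N2A list. Their median p was 0.0125 (quartiles 0.000266 and 0.0485), against 0.00369 (2.37e-06 and 0.0341) for shared sites. A p under 0.001 was given to 634 far sites (29.6%, 27.7 to 31.6) and to 2028 shared sites (42.3%, 40.9 to 43.7). With the N2A peaks in coding genes ranked by p, 141 of the 694 strongest (20.3%, 17.5 to 23.5) were far, and 258 of the 693 weakest (37.2%, 33.7 to 40.9). Far sites in genes with and without a cortex peak had close median p-values, 0.0122 and 0.0147. These p-values come from the authors' peak calling on 1 sample, and whether the weaker peaks would be found in another N2A library was not tested.

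**Figure D3:**
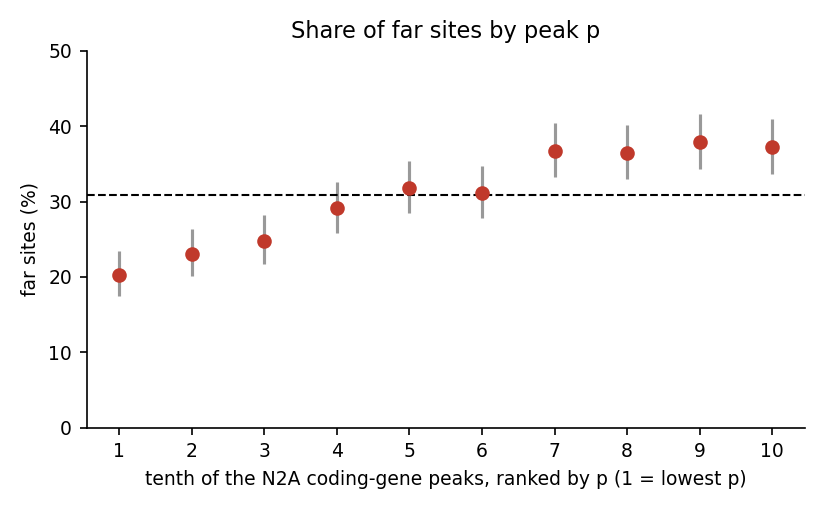
Share of far sites (percent, with Wilson 95% intervals) in each of 10 equal classes of the N2A peaks in coding genes, ranked from the lowest p (1) to the highest (10). The dashed line is the share over all, 30.9%. The share is 20.3% in the first class and 37.2% in the last.

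Even so, some far sites ranked near the top of the N2A list. The strongest lay in Scd2, a desaturase that makes monounsaturated fatty acids, at chr19:44306101-44306152 on the plus strand. Its p of 5.81e-307 ranked 8 among the N2A peaks in coding genes, it lay 712 nt from the gene end, and the nearest of the 2 cortex peaks in Scd2 was 2.658 kb away. Itga6, the laminin receptor subunit integrin alpha 6, followed with a site at chr2:71856248-71856299, plus strand (p of 7.43e-145, gap 865 nt). Celf1, a splicing and decay regulator that binds GU-rich RNA, had one at chr2:91017217-91017268, plus strand (p of 7.44e-104, gap 446 nt), in a gene with 51 cortex peaks. Hells, a chromatin remodeller of dividing cells, had one at chr19:38968003-38968054, plus strand (p of 4.83e-96), whose gene held only 1 cortex peak, at a gap of 32.7 kb. These 4 sites show the range, from a gene with 1 cortex peak to one with 51.

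The next strongest far sites lay in genes with 4 to 38 cortex peaks. Sec62, which aids protein entry into the endoplasmic reticulum, had a site of p 4.80e-94 at a gap of 222 nt, and the translocon-associated Tram1 one of p 2.72e-68 at 408 nt. Canx, the chaperone calnexin, had one of p 4.36e-60 at 783 nt. Osbp, an oxysterol carrier, had one of p 4.52e-73 at 346 nt, and the lysosomal membrane protein Laptm4a one of p 3.92e-80 at 218 nt. Nmnat2, an axon survival factor, had a far site of p 5.05e-88 at 407 nt in a gene with 38 cortex peaks, and Myt1, a neural zinc finger factor, one of p 1.10e-56 at 305 nt. Tmem164, a membrane protein, had one of p 7.66e-89 at 3.817 kb, and Supt16, a subunit of the FACT histone chaperone, one of p 1.43e-88 at 228 nt. Of the 15 genes with the strongest far sites, all had at least 1 cortex peak and 14 had the site within 5 kb of the gene end, Tmem164 being the exception at 8.993 kb.

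Each of the 15 genes with most far sites also had shared sites. Map1b, which binds microtubules and acts in axon growth, had 12 far and 6 shared N2A sites. Of its 12, 8 lay within 5 kb of the gene end, the strongest at chr13:99423195-99423245 on the minus strand (p of 2.47e-82, gap 728 nt). In the last 8 kb of Map1b there were 8 far and 2 shared N2A sites but 2 cortex peaks, although the gene held 24 cortex peaks in all. Nucks1, a nuclear DNA-binding phosphoprotein, had 10 far and 7 shared sites and 7 cortex peaks. Cbx5, the heterochromatin protein HP1 alpha, had 9 far and 11 shared sites and 15 cortex peaks, and its strongest N2A peak, at chr15:103198630-103198680 on the minus strand (p of 2.68e-56), was a far site 232 nt from a cortex peak. All of its 9 far sites lay within 580 nt of a cortex peak.

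Tcf4, a basic helix-loop-helix transcription factor, had 114 cortex peaks over its 344.5 kb span but 4 of them in the last 8 kb, where N2A had 9 far and 4 shared sites. Its strongest far site had a p of 2.66e-29 and a gap of 839 nt. Tmx4, a thioredoxin-like membrane protein, had 8 far and 2 shared sites, and its strongest N2A peak (p of 1.62e-45) was far, at a gap of 2084 nt. Msi2, an RNA-binding protein of progenitor cells, had 8 far and 4 shared sites, and Dpysl2, the axonal collapsin response mediator CRMP2, had 8 and 2. The 8 far sites of Dpysl2 lay 511 to 2302 nt from the gene end, at gaps of 353 to 2144 nt. Elavl1, which encodes HuR itself, had 7 far and 6 shared sites. Its strongest N2A peak, at chr8:4288277-4288328 on the minus strand (p of 2.74e-80), was far by 6 nt, with a gap of 206 nt, so it would be a shared site at a slightly wider limit.

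Other genes with 7 far sites included Irf2bp2, a transcriptional corepressor, Gna13, a G protein alpha subunit, Efna5, an ephrin of axon guidance, and Abi2, a regulator of actin assembly. The 7 sites of Abi2 also lay in the span of Raph1, which overlaps it, and count for both genes, since the peaks were placed without regard to gene strand. Read along the plus strand, on which they lie, the end of the Abi2 span was 1.624 to 4.518 kb downstream. In Irf2bp2 the strongest N2A peak (p of 3.69e-283) was shared and the strongest far site had a p of 5.41e-21. Some far sites lay deep inside a gene. Ankrd11, a chromatin regulator, had 6 far sites, at 103607 to 157584 nt from the gene end, with p-values of 0.00212 to 0.0664. Rc3h2, a roquin RNA-binding protein with a gene span of 55.5 kb, was not such a case. Of its 6 far sites, 5 lay between 5024 and 6325 nt from the end and the other at 4926 nt.

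**Figure D4:**
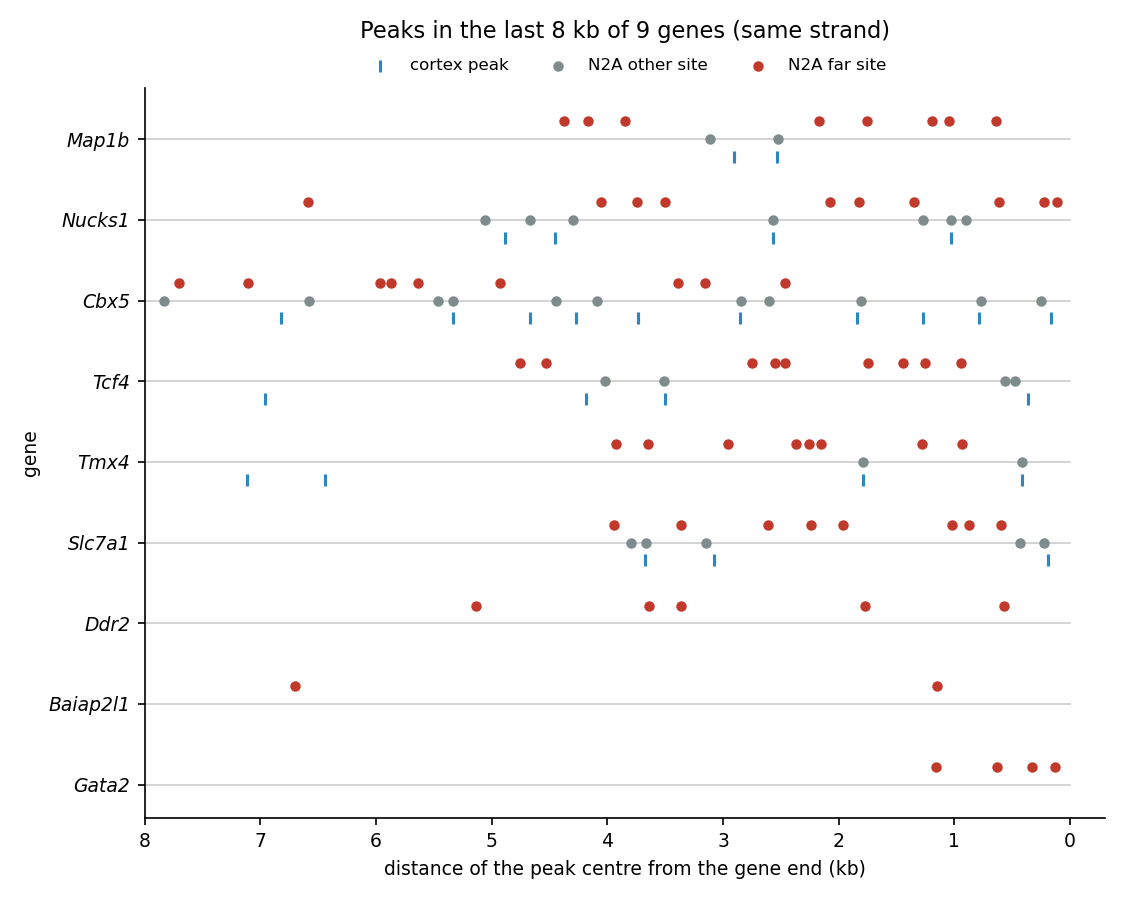
Peak centres in the last 8 kb of 9 genes, plotted by distance from the gene end in kb (far N2A sites in red, shared N2A sites in grey, cortex peaks as blue bars). The upper 6 genes have the most far sites and the lower 3 are genes with 0 cortex peaks among those with the strongest far sites. Map1b has 8 far sites and 2 cortex peaks in this window, Tcf4 has 9 and 4, and Tmx4 has 8 and 4. In Ddr2, Baiap2l1 and Gata2 no blue bar is drawn.

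Most far sites had another N2A peak nearby. Only N2A peaks in coding genes were searched as neighbours. Another such peak lay within 1000 nt of 1267 far sites (59.2%, 57.1 to 61.2) and of 2943 shared sites (61.4%, 60.0 to 62.7). Within 200 nt the counts were 517 (24.1%, 22.4 to 26.0) and 1441 (30.1%, 28.8 to 31.4). A shared site lay within 1000 nt of 890 far sites (41.6%, 39.5 to 43.7).

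The 269 genes with far sites and no cortex peak make up 19.4% of the genes with far sites. Coding genes with an N2A peak and no cortex peak numbered 270 of 3184 (8.48%). These shares count nearly the same genes over different totals. The rule makes almost every N2A peak in a gene without a cortex peak a far site. Of the 269, 192 had 1 far site, 50 had 2 and 27 had 3 or more. The strongest lay in Ddr2, a collagen-activated receptor kinase, at chr1:169975925-169975976 on the minus strand (p of 8.75e-53), with 4 more far sites in the gene. Ier2, an immediate early gene, had a site 58 nt from its end at chr8:84661389-84661439, minus strand (p of 2.05e-47). Slc10a4, a vesicular transporter of cholinergic and aminergic neurons, had one of p 1.07e-34 located 298 nt from the end, and Slc35g1 had one of p 2.77e-29. Fads2, a fatty acid desaturase, had one of p 9.91e-29, and Gdf15, a stress-induced cytokine, one of p 3.29e-27 that lay 37 nt from the end. Rad18, a ubiquitin ligase of DNA damage tolerance, had one of p 1.38e-25, Baiap2l1, an actin-binding adaptor, one of p 6.29e-23, and Zfp36l2, a protein that promotes decay of AU-rich mRNAs, one of p 4.71e-18. Mcm2, a subunit of the replicative helicase (p of 4.90e-14), Mthfd2, a mitochondrial folate enzyme (p of 7.43e-14), and Fbln1, a matrix protein (p of 4.01e-12), also had such sites, as did Insm1 and Gata2. In all 15 genes the strongest far site lay within 5 kb of the gene end.

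Regulators of the sympathoadrenal lineage were among them. Of 22 listed genes, 11 had N2A peaks, 28 in all, and 21 of these were far (75%, 56.6 to 87.3, against 30.9% overall). Gata2, a transcription factor of the lineage, had 4 far sites at 109 to 1131 nt from its end, the strongest at chr6:88206676-88206727 on the plus strand (p of 1.71e-21). Phox2a, a homeobox factor of autonomic neurons, had 2 (p of 0.00331). Ret, the receptor for glial cell line-derived ligands, had 5 (p of 6.00e-06), Hand2, a helix-loop-helix factor, had 2 (p of 0.00508), and Insm1, a zinc finger factor of neuroendocrine cells, had 1 (p of 5.53e-28). None of these 5 genes had a shared site or a cortex peak. Lin28b had 3 far and 1 shared N2A sites and 4 cortex peaks, and its strongest far site had a p of 9.77e-30. The other 4 genes with N2A peaks had shared sites alone, 3 in Meis2 and 1 each in Mycn, Alk and Chgb, all with cortex peaks, and 9 of the 22 listed genes had a cortex peak. In the overlapping list of 15 sympathoadrenal markers, 20 of 23 N2A peaks were far (87.0%, 67.9 to 95.5). The list was written with earlier results of these data known, and no test was made on it.

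Genes of the let-7 pathway and oncofetal RNA-binding proteins, a list that also holds Lin28b, had 18 far sites among 27 N2A peaks (66.7%, 47.8 to 81.4). Lin28a, which blocks maturation of let-7 microRNAs, had 5 far sites within 1498 nt of its end (p of 1.33e-10) and 0 cortex peaks, though the nearest cortex peak outside the gene was 2966 nt from one of them. Trim71, a ubiquitin ligase of stem cells, had 1 (p of 0.00980) and 0 cortex peaks. The uridylyltransferase gene Tut4 had 1 (p of 6.15e-15) at a gap of 238 nt in a gene with 40 cortex peaks. Msi2, described above, supplied 8 of the 18.

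Cell division genes had more far than shared sites. Over the lists for the G1 phase, mitosis and DNA replication, 93 genes in all, 41 of 68 N2A peaks were far (60.3%, 48.4 to 71.1), and 12 of the 29 genes with an N2A peak had no cortex peak (41.4%, 25.5 to 59.3, against 8.48% overall). Among G1 regulators, Myc had 4 far sites 11 to 610 nt from the gene end (p of 2.28e-09), and Rbl1, a retinoblastoma-like repressor, had 4 (p of 1.37e-05). The activator E2f1 had 3 (p of 0.00769), and the kinase Cdk2 had 2 (p of 0.000104), with 0 cortex peaks in each of these 4 genes. The 2 sites of Cdk2 also lay in the overlapping span of Pmel and count for both. Ccne2, encoding cyclin E2, had 2 far sites (p of 0.0273) in a gene span with 5 cortex peaks, 2 of them on the other strand, where Ints8 overlaps.

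Among mitotic genes, Cdc25a, a phosphatase that activates cyclin-dependent kinases, had 4 far sites (p of 0.00835), and Top2a, the topoisomerase of dividing cells, had 3 (p of 0.00356), again with 0 cortex peaks. Ccna2, encoding cyclin A2, had 2 far sites (p of 2.96e-23) at 120 and 390 nt from the gene end, in a stretch where its span overlaps that of Exosc9. The only shared site and cortex peak placed in Ccna2 lie on the opposite strand, where the position analysis used Exosc9, and Ccna2 had 0 cortex peaks on the strand of its far sites. Rad21, a cohesin subunit, had 2 (p of 0.00104) and 5 cortex peaks. In the replication list only 4 genes had N2A peaks, 1 each, and the peaks of Mcm2, Pola1 (p of 0.0438) and Usp1 (p of 0.0605) were far. Many of these sites have p-values above 0.001, and their number is small.

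Genes for nutrient uptake, protein folding and microtubules also had about as many far as shared sites, at median gaps of 785, 964 and 877 nt for the far ones. Of the amino acid and sugar transporters, all 14 genes with an N2A peak had a far site, against 43.6% of all such genes. A gene with more N2A peaks has more occasions for a far site. These 14 genes held 65 N2A peaks, while all 3184 such genes held 6936, so the shares of genes are not directly comparable. Of the 65 transporter peaks, 34 were far (52.3%, 40.4 to 64.0). Slc7a1, the cationic amino acid transporter CAT1, had 8 far and 5 shared sites and 3 cortex peaks, all far sites lying within 1062 nt of a cortex peak. Slc7a11, the cystine transporter, had 7 far sites (p of 1.14e-15) and 4 cortex peaks, Slc38a1, a glutamine transporter, had 4 (p of 0.0226), and Slc16a1, the lactate transporter MCT1, had 3 (p of 2.62e-09). Only Slc7a3 and Slc1a5 had far sites and no cortex peak.

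Chaperone and endoplasmic reticulum folding genes had 23 far sites among 46 peaks (50%, 36.1 to 63.9). Canx and Hspa9, a mitochondrial chaperone, had 3 each, Sec62 and Calr, encoding calreticulin, had 2 each. Hspa5 (p of 0.0397), Hsp90aa1 (p of 0.00192) and Sec61b (p of 0.0914) had 1 each and 0 cortex peaks. The site of Hspa5 also lay in the overlapping span of Rabepk. Tubulin and microtubule-associated genes had 34 far of 66 (51.5%, 39.7 to 63.2), 20 of them in Map1b and Dpysl2. Pafah1b1, the lissencephaly protein Lis1, had 5 (p of 2.98e-16) in a gene with 40 cortex peaks, and Dpysl3 had 3 (p of 1.70e-11). Lipid synthesis genes had 20 of 54 (37.0%, 25.4 to 50.4), with 4 in Scd2 and 2 in Fads2, both described above.

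Splicing factors and translation factors had the lowest shares in the plot of gene lists. For hnRNP and SR splicing factors, 16 of 92 N2A peaks were far (17.4%, 11.0 to 26.4), and every gene of the list had a cortex peak. These far sites fell in 12 of the 30 genes with an N2A peak, against 43.6% of such genes overall. The share was thus low for peaks. The shares of genes are not directly comparable, since the 30 genes held 92 N2A peaks while all 3184 such genes held 6936. Hnrnpu, a nuclear scaffold protein, had 2 far and 4 shared sites (p of 1.66e-39), Hnrnpa2b1 had 2 (p of 0.00250), Srsf10 had 2 (p of 0.0609) and Tra2a had 2 (p of 0.0722). Translation factors had 10 of 55 (18.2%, 10.2 to 30.3), 3 of them in Eif4g2, a noncanonical initiation factor (p of 4.14e-54), and 2 in Eif4b (p of 1.69e-06). Both intervals end below 30.9%, without a test.

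Genes of mRNA decay had 15 of 70 (21.4%, 13.4 to 32.4), with 4 in the deadenylase gene Cnot6l (p of 1.68e-06) and 2 each in Zfp36l2 and in the translational repressor Pum2 (p of 0.000811). Argonaute and microRNA processing genes had 3 of 15 (20%, 7.05 to 45.2), 1 each in Ago2, Dicer1 and Tnrc6a. ELAV-like and neuronal splicing regulators had 28 of 81 (34.6%, 25.1 to 45.4). Within that list 7 were in Elavl1, 4 in Celf1, 4 in Ptbp3 (p of 3.53e-10) and 3 in Qk (p of 1.09e-05). Ptbp1, the polypyrimidine tract-binding protein of non-neuronal cells, had 2 far sites (p of 0.000138) and 0 cortex peaks. Both sites also lay in the span of Plppr3, which overlaps Ptbp1. The neuronal relative Ptbp2 had 2 far and 3 shared sites (p of 1.29e-22) and 36 cortex peaks. The relative Ptbp3 had 6 shared sites beside its 4 far ones, and 10 cortex peaks.

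The gene lists named next, apart from the cell type markers, had shares whose intervals included 30.9%. Chromatin regulators had 27 far sites of 89 (30.3%, 21.8 to 40.5), 9 of them in Cbx5 and 3 in Tet3, an enzyme that oxidises methylcytosine (p of 1.85e-06). Signalling genes of the MAP kinase, growth factor and Wnt pathways had 27 of 92 (29.3%, 21.0 to 39.3), with 3 each in Irs2, an insulin receptor substrate (p of 9.94e-06), and Spred1, an inhibitor of Ras signalling (p of 0.00217). Actin and axon growth genes had 24 of 76 (31.6%, 22.2 to 42.7), with 4 in Msn, encoding moesin (p of 3.78e-05), which had 0 cortex peaks. Nuclear transport genes had 22 of 79 (27.8%, 19.2 to 38.6), with 4 in Kpnb1, and ubiquitin and proteasome genes 15 of 57 (26.3%, 16.6 to 39.0), with 4 in Ube3a. Ribosome biogenesis genes had 9 of 28 (32.1%, 17.9 to 50.7), 6 of them in the RNA helicase gene Ddx21 (p of 1.85e-10). AU-rich mRNAs described as ELAVL1 targets had 21 of 57 (36.8%, 25.5 to 49.8), among them 8 in Slc7a1 and 4 in Myc, counted above. SOX and neural progenitor factors had 5 of 13 (38.5%, 17.7 to 64.5), 3 in Sox11 (p of 4.54e-18) and 2 in Sox4 (p of 2.01e-18).

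Neuronal genes had a share near that of all N2A peaks. Over the vesicle release, transmitter receptor and voltage-gated channel lists, 74 genes in all, 11 of 41 N2A peaks were far (26.8%, 15.7 to 41.9). Of the 16 genes with an N2A peak, 0 lacked a cortex peak (0%, 0 to 19.4, against 8.48% overall). That interval includes the share over all genes. Syt4, a synaptotagmin of dense-core vesicles, had 3 far sites (p of 2.04e-11), Syn2, a synapsin, had 2 (p of 0.0210), and the SNARE gene Snap25 had 1 (p of 0.00424). Gabbr1, a GABA-B receptor subunit, had 1 (p of 3.14e-05), and the voltage-gated channel list had 0 of 3.

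**Figure D5:**
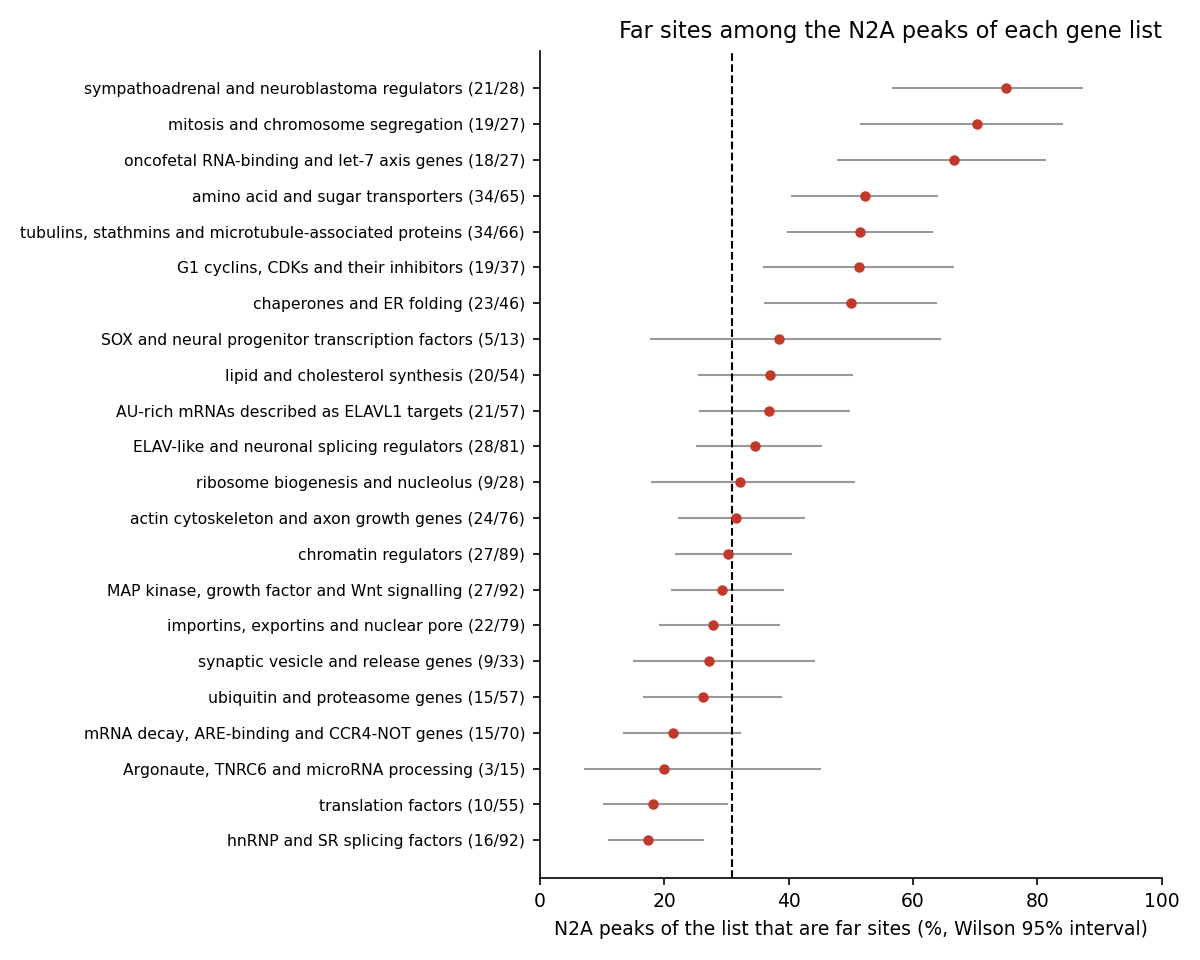
Share of N2A peaks that are far sites in each gene list with at least 10 N2A peaks, cell type marker lists left out (points, with Wilson 95% intervals; far sites and peaks in brackets). The dashed line is the share over all N2A peaks in coding genes, 30.9%. Sympathoadrenal regulators (21 of 28) and mitotic genes (19 of 27) lie highest of those drawn, and hnRNP and SR splicing factors (16 of 92) lowest.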

How the data were processed

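Elavl HITS-CLIP peaks of 3 cortex samples and 1 N2A sample were used. Each group is 1 list made by the authors, with a p-value per peak deposited by the authors, from 0 to 0.0999 in cortex and 0.0997 in N2A. How the p was adjusted, which peak caller and filters were used, and how samples were pooled is not given here. Novoalign and hg19 are named in the submitters' processing notes. Mouse chromosome names were read as GRCm38, and coordinates are printed as deposited, their base (0 or 1) not being stated.

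Gaps between peaks were computed in Python 3.11.15 with pandas 2.3.3. A peak was placed in every coding span of RefSeq GRCm38.p6 (21900 genes) it touched, strand not used, and its distance to the gene end was read on its own strand, to the nearest end where spans overlap. Exons and untranslated regions were not used. Intervals are Wilson 95% intervals (scipy 1.17.1). No test was made, since each group is 1 list. Gap search and gene placement were tested on simulated peaks.

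All 755 entries of 32 gene lists matched RefSeq. Members and lists were chosen with earlier results of these data known. Genes were named by rule: the 15 with most far sites, the 15 with the strongest, and the 15 strongest without cortex peaks. The rule also named the 5 genes with most far sites over 5 kb from the gene end. It added 5 sites on each side of the limit, and up to 4 genes per list with most far sites. Phox2a, Hand2, Trim71, Ccne2, Ptbp1, Ptbp2, Slc7a3, Slc1a5, Hspa5, Hsp90aa1, Sec61b, Diaph3, Meis2, Mycn, Alk, Chgb and the genes of sites opposite to the gene strand were named after their values were seen, and H2ac22 and Zbtb18 because their letters could be read. Other limits, p thresholds, strands and windows were tried. Some genes that the rule names are not reported here.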

Additional observations from a re-analysis of the deposited data

How the results depend on the processing

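No paired analysis was possible because each group has 1 peak list. The number of far sites, 2141, was 3987 when only overlap with a cortex peak counted, 3286 at 50 nt, 1281 at 500 nt, 915 at 1000 nt and 582 at 5000 nt, and their share of the N2A peaks in coding genes was 57.5%, 47.4%, 18.5%, 13.2% and 8.39% in that order. The share of far sites within 5 kb of the gene end was 81.2%, 79.8%, 69.9%, 67.2% and 71.1%, and the share in genes with no cortex peak was 10.1%, 12.2%, 31.2%, 43.6% and 66.7%. The number of genes with a far site, 1389, was 2223 with overlap, 909 at 500 nt, 687 at 1000 nt and 443 at 5000 nt. These counts follow from the limit itself. With N2A peaks under p 0.05 the share of far sites was 29.2% and the share near the gene end 80.5%. Under p 0.001 there were 634 far sites (23.8%) in 492 genes, 88.0% near the end and 16.1% in genes with no cortex peak. With cortex peaks under p 0.05 the share of far sites was 34.3% and that in genes with no cortex peak 20.5%, and under p 0.001 they were 45.7% and 29.6%. With a window of 2 or 10 kb the share near the end was 56.9% or 83.0%. Cortex peaks of either strand, peaks in exactly 1 coding gene, leaving out the 10 genes with most far sites and, chosen after seeing the data, only peaks on the strand of a RefSeq gene start moved no share beyond its interval and no count by over 1.5 times. Depth is unknown, so a site missing from a list may be below detection.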

Other observations

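A few far sites lay on the strand opposite to their gene. The gene strand was known from RefSeq start windows for 1696 far sites, and 18 of them (1.06%, 0.672 to 1.67) were opposite, against 7 of 3840 shared sites (0.182%, 0.0883 to 0.376). The strongest were in Cntnap2, a neurexin-family adhesion gene (p of 9.98e-09), in Itga9, an integrin gene (p of 2.94e-08), in Mvp, encoding the major vault protein (p of 6.41e-06), and in Gch1, the first enzyme of tetrahydrobiopterin synthesis (p of 5.13e-05). None of these 4 was within 10 kb of a cortex peak on its strand. The rule counts only cortex peaks on the strand of the N2A peak, so the contrast of 18 with 7 depends on the rule and was not tested. Cntnap2, for example, held 371 cortex peaks, of which 1 lay on the strand of its far site. Outside coding genes, 219 further N2A peaks had no cortex peak within 200 nt.

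The share of far sites varied among chromosomes. It was 38.6% (33.3 to 44.3) on chromosome 12 and 36.4% (30.3 to 43.0) on chromosome 19, and 24.6% (18.9 to 31.4) on chromosome 14 and 24.7% (19.1 to 31.3) on chromosome 16. Chromosomes 14 and 16 had 29.1 and 27.6 cortex peaks per N2A peak in a coding gene, the highest ratios of all chromosomes. The lowest ratios, on chromosomes 8, 19, 15, 11 and 10, were 8.55, 9.50, 9.70, 9.90 and 11.1. Their shares of far sites were 34.4%, 36.4%, 32.3%, 26.9% and 33.1% in that order. Chromosomes 12 and 3 had 15 each at shares of 38.6% and 27.6%. The part of this ratio in the shares was not tested.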
